A study of Mus musculus with 4 samples.

Results

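Leukocyte genes were read in Sca-1 cells sorted from mouse hearts, to see which blood cell lineages left RNA in each sorted pool and whether that RNA differed between cells of failing and healthy hearts. The group holds 42 genes of 18193 that stand alone on at least 1 probe set, and 65 probe sets of 45037 on the array. All probe sets annotated to the 42 symbols were taken, whatever their values. They comprise 10 pan-leukocyte genes, 7 genes shared by myeloid cells, 11 macrophage genes, 4 of MHC class II presentation, 4 of B and plasma cells, 2 of T cells, 2 of NK and other cytotoxic cells and 2 of neutrophils.

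The cells came from FVB mice aged 6 weeks and of either sex. Cyc mice carried both αMHC-CyclinT1 and αMHC-Gαq transgenes, whose promoter is active in cardiomyocytes, and are a heart failure model, and wildtype (Wt) littermates served as controls. Cells labelled as undifferentiated Sca-1 progenitors were isolated by magnetic sorting, and 1 pool of cells from 2 to 3 hearts, with no culture before extraction, was put on each Affymetrix whole-genome mouse array, with 2 pools per genotype. The replicate numbers were taken as 2 independent experiments, each with 1 Cyc and 1 Wt pool. The sources used here describe no step that removed blood cells.

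The heart holds resident macrophages, monocytes and lymphocytes beside its muscle, endothelial and stromal cells, and blood in its vessels adds more of them. Sca-1 is not confined to cardiac progenitors. It is also carried by blood stem cells and, in many strains, by lymphocytes, so that a sort for it can take leukocytes along. Macrophages recognize and digest debris and pathogens, while MHC class II molecules on B cells, dendritic cells and macrophages show peptides to T cells.

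Values are intensities on a linear scale as deposited, some of them below 0, and wherever 2 values are given for a genotype they are those of replicate 1 and then replicate 2. An intensity of 50 or more was called detected, and each gene is described at its probe set of highest mean over the 4 pools unless another is named. Log2 differences were taken after values below 0 were set to 0 and 16 was added, which understates differences of dim genes. Over all probe sets 41.0% to 47.6% were detected per pool, and the medians of the tested ones ran from 197.6 in the Cyc pool of replicate 1 to 280.5 in that of replicate 2. The Cyc pool of replicate 2 stood apart in genes of airway epithelium, which had a summed intensity of 25422 there, compared with 344.3 for Cyc replicate 1, 5245 for Wt replicate 1 and 164.2 for Wt replicate 2. The endothelial list, with 11 of 11 matched genes detected in each pool, summed to between 65344 and 72316. Precision is limited by there being 4 arrays, and in RNA from whole pools fewer cells of a type and less RNA per cell cannot be told apart.

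Some leukocyte genes were detected in each pool, and most of them in the Cyc pool of replicate 2. At any of their probe sets, 19 of the 42 genes were detected in the Cyc pool of replicate 1, 31 in that of replicate 2, and 16 in each Wt pool. Counted the same way, 54.6% and 58.6% of all genes were detected in these Cyc pools and 54.9% and 55.2% in the Wt pools of replicates 1 and 2, so that the leukocyte share was above that of all genes in the Cyc pool of replicate 2 (73.8%) and below it in the other Cyc pool (45.2%) and both Wt pools (38.1% each). With the pools scaled to a common median, 24 and 30 members were detected in the Cyc pools of replicates 1 and 2. In the Wt pools 16 and 14 were then detected, and the share of all genes was not counted at that scaling. As deposited, the 12 genes detected in every pool were Ptprc, Cd52, Laptm5, Lcp1, Cd53, Ctss, Lyz1, Lyz2, Cd74, H2-Aa, H2-Ab1 and Jchain. In the Cyc pool of replicate 2 alone, 9 genes were detected, namely Fcer1g, Cd68, C1qa, C1qb, Mrc1, Mpeg1, Cd79b, Ms4a1 and Nkg7, which is 21.4% of the members against 2.41% of all genes. Counted by probe set, 14 of the 65 were detected there alone, against 2.36% of all probe sets, 27 were detected there and at least 2-fold above each other pool, against 1.37%, and 54 had their highest value there, against 41.5%. Lcp2, Itgb2, Tyrobp and Gzma were detected in both Cyc pools and in no Wt pool, as were 0.484% of all genes. Another 9 genes stayed below 50 in every pool, namely Cd48, Itgam, C1qc, F13a1, Cd163, Aif1, H2-Eb1, Cd79a and S100a9.

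**Figure D1:**
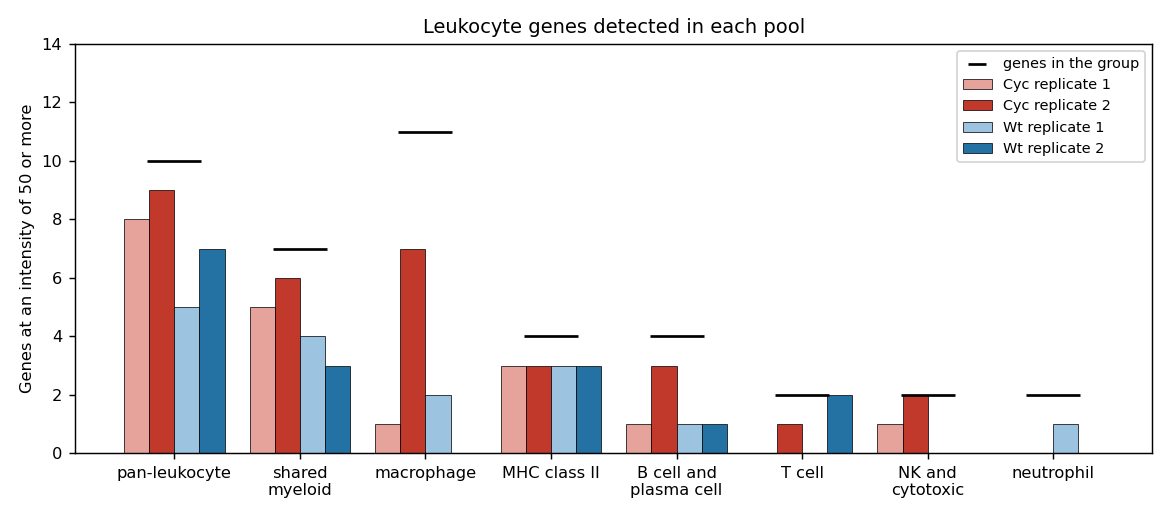
Number of genes of each lineage at an intensity of 50 or more in each of the 4 pools (linear axis), where red bars are Cyc, blue bars are Wt and black lines give the number of genes in the group. Of 11 macrophage genes 1, 7, 2 and 0 were detected in Cyc replicates 1 and 2 and Wt replicates 1 and 2, while 3 of 4 genes of MHC class II were detected in every pool.

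Several of these calls lie close to the threshold. Just inside were Rac2 at 51.6 and Cd3d at 52.3 in the Wt pool of replicate 2, and S100a8 at 53.3 in the Wt pool of replicate 1. Just outside were Cd3g at 46.4, S100a8 at 45.8 and C1qb at 45.7, all in the Cyc pool of replicate 1.

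Of the 29 probe sets of 22 members that could be tested, 6 were called higher in Cyc cells and none was called lower, where a call required a 2-fold difference together with an unadjusted p below 0.05. Over all 20680 tested probe sets these calls were made for 0.735% as higher and 0.116% as lower. With the experiment as a block the same 6 were called higher and again none lower, beside 0.924% and 0.227% of all tested probe sets. The 6 genes are Cd52, Itgb2, Lcp2, Tyrobp, Ctss and Gzma, and each was brighter in the Cyc pool of both experiments. None of the 412 probe sets with an unadjusted p under 0.05, of which 6 are members, passed the correction for multiple tests (limma, adjusted p = 1), and in the blocked fit the smallest adjusted p of a member was 0.626. Members that were dim in Wt cells reached the tested set only when bright in Cyc cells. The members were also chosen with earlier results of these data known. For both reasons the count is a description and no test of the group. Without the Cyc pool of replicate 2, the log2 fold changes of the 6 called genes ran from 0.79 (Tyrobp) to 1.49 (Lcp2). Cd52, Itgb2, Tyrobp and Ctss were then under 2-fold, and Jchain was at -1.16. The 6 ran from 1.12 to 2.14 without the Wt pool of replicate 2, and from 0.99 (Lcp2) to 1.76 without that of replicate 1. Without the Cyc pool of replicate 1 they ran from 1.64 to 2.26.

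**Figure D2:**
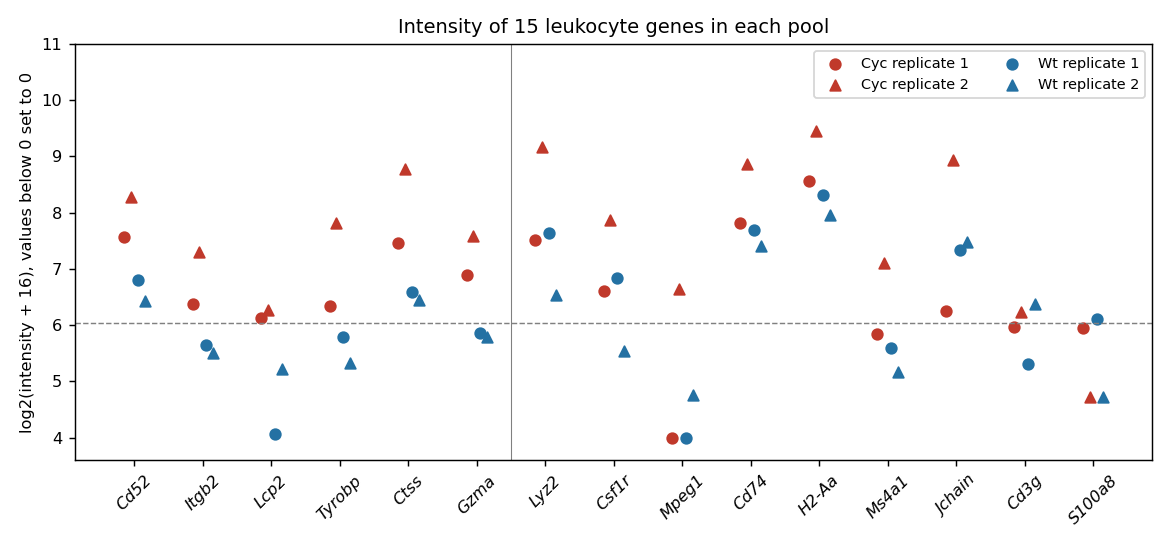
Intensity of 15 genes in each pool on a log2 scale after 16 was added, where red symbols are Cyc, blue ones Wt, circles replicate 1 and triangles replicate 2, and the dashed line is at an intensity of 50. Red symbols lie above the blue ones for the 6 genes left of the vertical line. To its right Lyz2, Csf1r, Mpeg1, Jchain, Cd3g and S100a8 have a Wt pool at or above the Cyc pool of replicate 1.

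Among the pan-leukocyte genes, Cd52, Itgb2 and Lcp2 were called higher in Cyc cells, without correction for multiple tests, and 6 tested genes did not pass the thresholds. Cd52, a small glycoprotein on the surface of lymphocytes and monocytes, had intensities of 173.6 and 295.0 on the Cyc arrays versus 95.5 and 69.9 on the Wt arrays. Both Cyc values exceeded both Wt values, and the log2 fold change was 1.31 with a standard error of 0.34 (limma), from 234 ± 85.9 in Cyc to 82.7 ± 18.2 in Wt cells (SD, n = 2 pools each). Itgb2, the β2 chain of the leukocyte integrins that hold cells to the vessel wall, was read at 67.5 and 142.4 on the Cyc arrays versus 34 and 29.4 on the Wt arrays. Since Wt cells gave less than 50 on both arrays, the Cyc pools, taken as their geometric mean, were at least 1.96-fold higher. Lcp2, the adaptor SLP-76 of T cell and platelet receptors, was read at 53.9 and 61.5 on the Cyc arrays versus 0.7 and 21.1 on the Wt arrays, at least 1.15-fold higher by the same bound. Its fitted log2 fold change of 1.56 (standard error 0.44) rests on a Wt pool near 0.

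Ptprc, the tyrosine phosphatase CD45 that all leukocytes carry, had intensities of 100 and 367.1 on the Cyc arrays versus 92.1 and 158.8 on the Wt arrays. The Cyc pool of replicate 1 lay between the Wt pools, and the log2 difference was 0.10 in experiment 1 and 1.13 in experiment 2. The limma fit gave 0.62, and its 95% interval of -1.08 to 2.31 leaves changes of more than 2-fold in either direction. Lcp1, the actin bundling protein L-plastin, was read at 253.2 and 405.1 on the Cyc arrays versus 133.8 and 268.1 on the Wt arrays. Coro1a, another actin binding protein of leukocytes, was read at 62.8 and 120.7 on the Cyc arrays versus 28.0 and 72.2 on the Wt arrays. At these probe sets of both genes the groups overlapped, although the Cyc pool was the brighter one in each experiment. The log2 differences were 0.85 and 0.57 for Lcp1 and 0.84 and 0.63 for Coro1a. Another Coro1a probe set did not overlap, at 44.9 and 126.8 on the Cyc arrays versus 37.4 and 42.4 on the Wt arrays, and was not tested. Cd53, a tetraspanin, was read at 85.9 and 162.3 on the Cyc arrays versus 60.2 and 61.3 on the Wt arrays. Its groups did not overlap, but at 0.81 on the log2 scale (standard error 0.34) it was not called. Laptm5, a lysosomal membrane protein of blood cells, had Wt values of 104.7 and 104.3 that lay between the Cyc values of 81.1 and 158.3, and its other tested probe sets overlapped between the groups too. Rac2, the small GTPase of the phagocyte oxidase, had a log2 fold change of 0.06 (0.40). Cd48, a ligand of lymphocyte receptors, was at 33.8 or less and was not tested.

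Of the 5 tested genes shared by myeloid cells, Tyrobp and Ctss were called higher in Cyc cells and the lysozymes and Cd14 did not pass the thresholds. Ctss, the lysosomal protease cathepsin S that trims the MHC class II invariant chain, had intensities of 160.5 and 423.1 on the Cyc arrays versus 80.6 and 71.3 on the Wt arrays. The Wt pools lay close together and below both Cyc pools, and the log2 fold change was 1.60 (standard error 0.49; 0.87 and 2.33 in experiments 1 and 2). Tyrobp, the adaptor DAP12 of activating receptors, was read at 65.5 and 208.4 on the Cyc arrays versus 39.6 and 24.0 on the Wt arrays. By the geometric mean of the Cyc pools it was at least 2.34-fold higher, since both Wt pools lay under 50. Its size came mostly from experiment 2, with log2 differences of 0.55 and 2.49. Fcer1g, the γ chain of Fc receptors, was read at 34.7 and 80.7 on the Cyc arrays versus 15.5 and 19.8 on the Wt arrays and, detected in 1 pool, was not tested.

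Lysozyme, the bacteria-lysing enzyme of phagocytes, was bright in the Cyc pool of replicate 2. Lyz2 had intensities of 166.5 and 560.1 on the Cyc arrays versus 182.4 and 76.9 on the Wt arrays. The probe set assigned to Lyz1 was read at 212.3 and 1042.9 on the Cyc arrays versus 237.8 and 96.3 on the Wt arrays. Both genes differed by -0.12 and -0.15 on the log2 scale in experiment 1 and by 2.63 and 3.24 in experiment 2. Lyz1 and Lyz2 are near-identical neighbours, and the 2 bright Lyz1 probe sets are of the x_at kind whose probes can bind related transcripts, while the third lay at 2.3 or less, so the share of each gene is uncertain. Cd14, the co-receptor for bacterial lipopolysaccharide, was read at 89.7 and 156.5 on the Cyc arrays versus 90.7 and 35.1 on the Wt arrays, so that the Cyc pool of replicate 1 and its Wt pool differed by -0.01 on the log2 scale. Itgam, the αM chain of the integrin Mac-1, lay at 12.1 or less in all pools.

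Macrophage genes were detected mainly in the Cyc pool of replicate 2, and neither of the 2 that could be tested passed the thresholds. Csf1r, the receptor for the growth factor on which macrophages depend, had intensities of 81.2 and 218.9 on the Cyc arrays versus 98.0 and 30.4 on the Wt arrays. The highest and the lowest value were both from experiment 2, and the fitted log2 fold change was 1.05 with a standard error of 0.63. Adgre1, a surface receptor used as a macrophage marker, was read at 44.2 and 55.0 on the Cyc arrays versus 69.1 and 31.8 on the Wt arrays, with log2 differences of -0.50 and 0.57 in the 2 experiments. The chains of complement C1q, a product of resident macrophages, stayed below 50 outside that pool. C1qa was read at -5.3 and 63.6 on the Cyc arrays versus -25.7 and -14.8 on the Wt arrays, C1qc at 32.2 or less, and C1qb at 45.7 and 95.8 on the Cyc arrays versus 10.7 and 25.4 on the Wt arrays.

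Mpeg1, a pore-forming protein of macrophages, was read at -6.3 and 83.4 on the Cyc arrays versus -32.5 and 11.1 on the Wt arrays. Mrc1, the mannose receptor of resident macrophages, was read at 18.3 and 72.0 on the Cyc arrays versus 3.8 and 13.9 on the Wt arrays. Cd68, a lysosomal glycoprotein, was read at 23.6 and 63.4 on the Cyc arrays versus 17.9 and 19.8 on the Wt arrays. All 3 were thus above 50 in 1 pool alone. F13a1, a clotting factor chain made by macrophages, Aif1 (Iba1) and the hemoglobin scavenger receptor Cd163 stayed at 41.9, 38.6 and 3.0 or less.

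MHC class II genes were read in all 4 pools at 3 of 4 members. Cd74, the invariant chain that guards the peptide groove, had intensities of 210.7 and 448.6 on the Cyc arrays versus 190.8 and 153.4 on the Wt arrays. H2-Aa, the α chain of I-A, was read at 363.2 and 687.1 on the Cyc arrays versus 302.6 and 231.4 on the Wt arrays, and H2-Ab1, its β chain, at 201.7 and 439.4 on the Cyc arrays versus 188.4 and 143.6 on the Wt arrays. At these brightest probe sets the lowest Cyc value of each gene exceeded the highest Wt value. Not all probe sets had that order, as a second H2-Aa probe set differed by -0.09 on the log2 scale in experiment 1 and the other H2-Ab1 probe sets by -0.03 and -0.29, and all 3 overlapped between the groups. Groups without overlap were found for 30 of the 65 member probe sets, against 15.8% of all probe sets, with Cyc higher, and for 1 (a dim Rac2 probe set) with Wt higher, against 10.6%. At the brightest probe sets the step in experiment 1 was 0.13, 0.25 and 0.09 on the log2 scale, against 1.46, 1.51 and 1.51 in experiment 2. Their fitted log2 fold changes were 0.79, 0.88 and 0.80 with standard errors from 0.38 to 0.43 and did not pass the thresholds. H2-Eb1, the β chain of I-E, lay between 14.2 and 20.5 in all pools.

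The upstream sequences of H2-Aa and H2-Eb1 are shown because class II genes share a promoter module and only the first of them was detected. They are the 250 bases before the start site in RefSeq (GRCm38.p6), at chr17:34287824-34288073 on the minus strand and chr17:34305617-34305866 on the plus strand, printed 5′ to 3′. Capitals mark CTGATTGG, the Y box that the factor NF-Y is known to bind, searched on both strands.
H2-Aa: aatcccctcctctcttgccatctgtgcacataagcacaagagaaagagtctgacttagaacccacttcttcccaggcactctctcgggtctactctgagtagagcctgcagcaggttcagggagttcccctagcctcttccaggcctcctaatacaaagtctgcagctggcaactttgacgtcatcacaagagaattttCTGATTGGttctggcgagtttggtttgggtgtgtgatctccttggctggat
H2-Eb1: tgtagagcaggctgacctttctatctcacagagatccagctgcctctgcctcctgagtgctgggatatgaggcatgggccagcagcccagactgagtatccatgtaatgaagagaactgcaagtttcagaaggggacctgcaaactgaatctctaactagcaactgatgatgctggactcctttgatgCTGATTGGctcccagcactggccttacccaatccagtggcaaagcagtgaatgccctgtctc
The 8 letters begin 51 bases before the start in H2-Aa and 62 before it in H2-Eb1. They occur in 2 of the 34 windows found for 30 members, those of these 2 genes, and in 3.83% of all 32851 windows. The match is a description of the reference sequence, which is not of the FVB strain.

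B cell genes were detected in the Cyc pool of replicate 2. Ms4a1, the surface protein CD20, had intensities of 41.5 and 121.2 on the Cyc arrays versus 32.1 and 19.9 on the Wt arrays. Cd79b, a signalling chain of the B cell receptor, was read at 27.9 and 100.3 on the Cyc arrays versus 17.7 and 27.4 on the Wt arrays, and its partner Cd79a at 27.4 or less. Jchain, the joining chain of secreted IgA and IgM in plasma cells, was detected in every pool, at 60.1 and 475.8 on the Cyc arrays versus 145.3 and 163.0 on the Wt arrays. The lowest and the highest value were both from Cyc pools, with log2 differences of -1.08 in experiment 1 and 1.46 in experiment 2 and a fitted value of 0.19 (95% confidence interval from -2.20 to 2.57, limma).

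T cell genes were read close to the threshold. Cd3d and Cd3g, chains of the T cell receptor complex, had their highest intensities in the Wt pool of replicate 2. Cd3g was read at 46.4 and 59.0 on the Cyc arrays versus 23.8 and 67.0 on the Wt arrays, and Cd3d at 18.6 and 29.0 on the Cyc arrays versus 20.0 and 52.3 on the Wt arrays. In experiment 2, where 39 of the 42 genes were brighter in the Cyc pool, the exceptions were Cd3d, Cd3g and H2-Eb1.

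Among the genes of cytotoxic cells, Gzma was called higher in Cyc cells. Gzma, the granule protease granzyme A of NK and cytotoxic T cells, was read at 103.4 and 175.5 on the Cyc arrays versus 42 and 39.1 on the Wt arrays. Both Cyc pools lay more than 2-fold above either Wt pool. As the Wt pools were below 50, Gzma was at least 2.69-fold higher by the geometric mean of the Cyc pools. Its log2 fold change ran from 1.04 to 1.76 over 14 alternative fits, all of them on these same arrays. Gzma reached the tested set through its Cyc pools only, and no member was called at an adjusted p under 0.05. Nkg7, a granule membrane protein of the same cells, was read at 24.9 and 67.4 on the Cyc arrays versus 10.9 and 10.8 on the Wt arrays, detected in 1 pool and not tested.

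Windows upstream of Ctss, Lcp2 and Gzma are printed because these 3 are the called members with a sequence in the RefSeq table. They are the 250 bases before the start at chr3:95526536-95526785 (plus strand), chr11:34046678-34046927 (plus strand) and chr13:113100982-113101231 (minus strand) of GRCm38.p6, printed 5′ to 3′. Capitals mark GAGGAA, a core letter group of sites of PU.1, a factor of myeloid and B cells, on either strand.
Ctss: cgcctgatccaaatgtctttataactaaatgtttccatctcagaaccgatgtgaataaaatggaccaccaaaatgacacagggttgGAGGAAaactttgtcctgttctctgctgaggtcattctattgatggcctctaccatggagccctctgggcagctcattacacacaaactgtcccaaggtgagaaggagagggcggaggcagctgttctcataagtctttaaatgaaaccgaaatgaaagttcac
Lcp2: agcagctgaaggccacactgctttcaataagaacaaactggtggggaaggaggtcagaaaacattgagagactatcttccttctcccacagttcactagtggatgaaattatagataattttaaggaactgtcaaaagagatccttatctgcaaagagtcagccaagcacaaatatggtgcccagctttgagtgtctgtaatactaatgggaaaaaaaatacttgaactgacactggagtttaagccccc
Gzma: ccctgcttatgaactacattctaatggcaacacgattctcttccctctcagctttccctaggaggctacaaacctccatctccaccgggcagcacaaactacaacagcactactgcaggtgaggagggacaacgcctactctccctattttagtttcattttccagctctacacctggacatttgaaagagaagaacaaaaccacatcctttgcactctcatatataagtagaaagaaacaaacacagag
A match was found in the Ctss window only, 164 bases before the start. Of the 34 member windows 14 held the letters, against 23.3% of all windows. Lcp2 and Gzma held none in these windows, which says nothing of the factor.

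The neutrophil genes showed a split by experiment. S100a8, a calcium-binding protein of neutrophils, was read at 45.8 and 10.5 on the Cyc arrays versus 53.3 and 10.3 on the Wt arrays, and its partner S100a9 at 24.0 and 5.7 on the Cyc arrays versus 25 and 2.6 on the Wt arrays. Both pools of replicate 1 were brighter than both pools of replicate 2, and within an experiment the genotypes differed by 0.22 or less on the log2 scale.

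Set side by side, the experiments differed in how many members were brighter in Cyc cells. Of the 65 probe sets, 39 were at least 2-fold higher in the Cyc pool of experiment 2 and none was 2-fold lower, against 3.49% and 0.573% of all probe sets. In experiment 1, 3 were 2-fold higher (Gzma, Lcp2 and C1qb) and 1 was 2-fold lower (Jchain), against 0.93% and 1.88% of all probe sets. The C1qb values of this pair were 45.7 and 10.7, both below 50, and its other probe sets differed by 0.0 and 0.14. For Lcp2 the Wt value was 0.7, and its other probe set differed by 0.06. Counting any difference, 35 were brighter in the Cyc pool of experiment 1 and 60 in that of experiment 2, against 37.2% and 54.7% of all probe sets. Over the 42 genes the median log2 difference was 0.17 in experiment 1 and 1.43 in experiment 2, beside -0.02 and 0.04 over all probe sets. The medians were 0.60 and 1.10 for pan-leukocyte, 0.55 and 2.33 for shared myeloid, 0.00 and 1.43 for macrophage and 0.17 and 1.48 for MHC class II genes. With 1 pool per genotype in an experiment, this difference between the experiments was not tested.

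**Figure D3:**
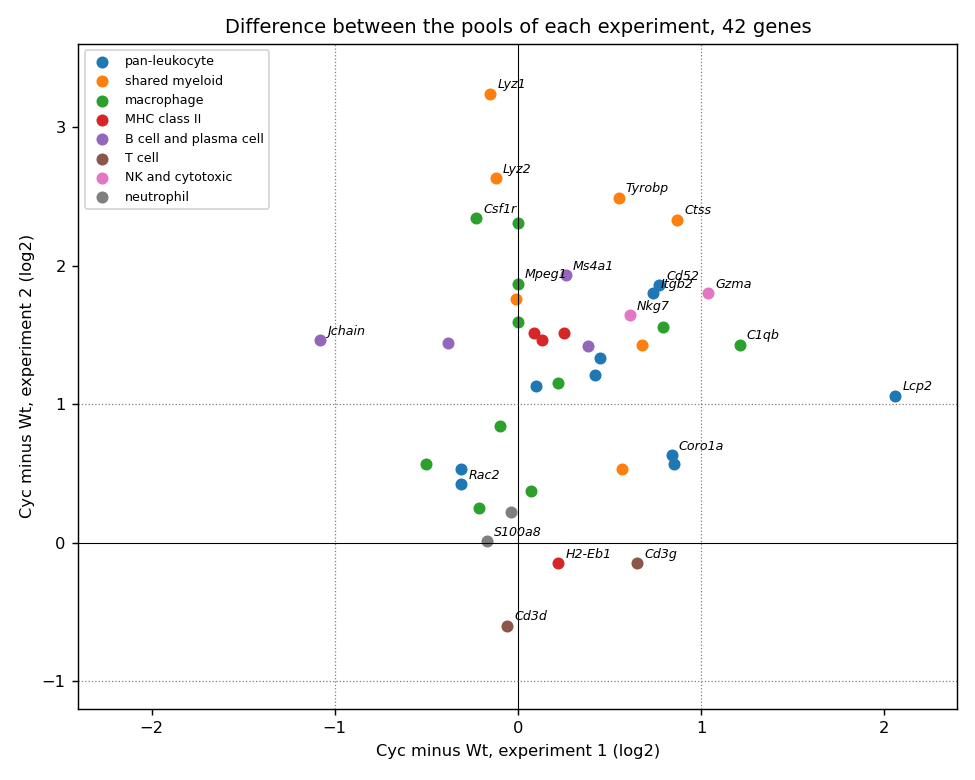
Cyc minus Wt log2 difference of each of the 42 genes in experiment 1 (horizontal) and experiment 2 (vertical), coloured by lineage, with dotted lines at 2-fold. Nearly all genes lie above 0 in experiment 2, whereas in experiment 1 they scatter from -1.08 (Jchain) to 2.06 (Lcp2). Only Lcp2, Gzma and C1qb exceed 2-fold in both, Lcp2 and C1qb at their brightest probe set only.

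Genes of other tissue moved with the leukocyte genes in part. Of 10 matched genes of airway and alveolar epithelium, 3, 7, 6 and 1 were detected in Cyc replicates 1 and 2 and Wt replicates 1 and 2. The sum was carried by Scgb1a1, Scgb3a2, Bpifa1 and Cyp2f2, while Foxj1 lay at 25.7 or less. Scgb3a2, a secretoglobin of airway cells, was read at 37.0 and 5569.1 on the Cyc arrays versus 697.6 and 13.8 on the Wt arrays, and Bpifa1, a secreted protein of the upper airway, at 5.2 and 7270.7 on the Cyc arrays versus 2111.7 and 14.5 on the Wt arrays. In experiment 2 the airway list and the 42 leukocyte genes were both brighter in the Cyc pool, with summed intensities of 7733 against 2280 for the latter. In experiment 1 the airway list summed to 344.3 in the Cyc and to 5245 in the Wt pool, whereas the leukocyte genes summed to 3111 and 2569. The part of other tissue in the leukocyte values of experiment 2 was not tested. Fibroblast genes, with 12 of 12 detected in each pool, summed to between 69579 and 70326 in 3 pools and to 46389 in the Wt pool of replicate 2, and Postn and Col1a1 among them were called higher in Cyc cells.

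**Figure D4:**
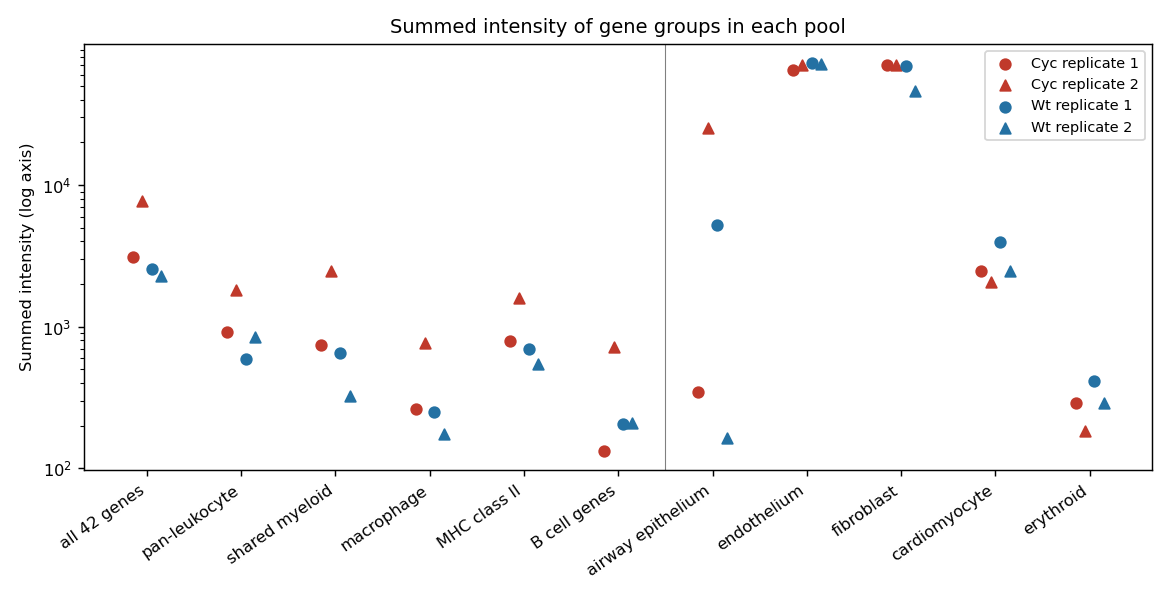
Summed intensity (log axis) of the leukocyte groups, left of the vertical line, and of markers of other cells, right of it, by pool, where red symbols are Cyc, blue ones Wt, circles replicate 1 and triangles replicate 2. The airway markers sum to 25422 and 5245 in Cyc replicate 2 and Wt replicate 1 and to 344.3 or less in the other pools, while the shared myeloid genes sum to 2483 in Cyc replicate 2 and to between 326.0 and 741.3 in the other pools.

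Further leukocyte genes that are not among the 42 were read in the same way. Of 32 tested probe sets of such genes, mast cell genes included, 1 was called higher and none lower, that of Ccl5, a chemokine of T and NK cells, with 97.3 and 215.7 on the Cyc arrays versus 45.6 and 11.9 on the Wt arrays. Ighm, the heavy chain of IgM, was read at 145.2 and 1434.7 on the Cyc arrays versus 297.9 and 187.1 on the Wt arrays, and Klrd1, the NK receptor CD94, at 36.7 and 90.8 on the Cyc arrays versus 11.5 and 15.4 on the Wt arrays. Xcl1, a chemokine of NK and T cells, was read at 137.8 and 110.7 on the Cyc arrays versus 153.7 and 94.3 on the Wt arrays. Further macrophage genes did not share 1 order of pools. Of 15 matched ones, 4, 7, 5 and 3 were detected in Cyc replicates 1 and 2 and Wt replicates 1 and 2. Their median log2 differences were -0.13 and 0.41 in the 2 experiments, and none of the 5 tested was called. Fcgr2b, an inhibitory Fc receptor, was read at 231.6 and 204.2 on the Cyc arrays versus 378.0 and 248.8 on the Wt arrays, and Pla2g7, a lipase that inactivates platelet-activating factor, at 198.3 and 187.7 on the Cyc arrays versus 302.4 and 242.4 on the Wt arrays, lower in the Cyc pool of each experiment. Of alveolar macrophage genes, Chil3 was read at 165.5 and Plet1 at 111.1 in the Cyc pool of replicate 2. Both lay at 18.5 or less in the other pools, whereas Marco, Itgax and Siglecf stayed at 11.5 or less in all pools. Il7r, the interleukin 7 receptor of lymphocytes, was read at 36.5 and 72.8 on the Cyc arrays versus 27.9 and 31.1 on the Wt arrays, and Cd247, the ζ chain of the T cell receptor complex, at 36.0 and 43.1 on the Cyc arrays versus 41.0 and 72.4 on the Wt arrays. The 15 other pan-leukocyte genes, all of them matched, had median log2 differences of 0.19 and 0.22 in the 2 experiments, and none of the 9 tested passed. The brightest were Ptpn18, a tyrosine phosphatase, at 567.8 and 490.3 on the Cyc arrays versus 358.9 and 459.4 on the Wt arrays, and Inpp5d, the lipid phosphatase SHIP1, at 422.7 and 374.5 on the Cyc arrays versus 310.9 and 413.2 on the Wt arrays.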

How the data were processed

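Sca-1 cells were isolated from Cyc and Wt hearts by magnetic sorting, and RNA of each pool (250 ng) was amplified, labelled and hybridised to an Affymetrix mouse array. The deposited intensity values were normalized by the authors in Resolver 7.2, and the background correction and summary method are not given in the sources used here. They were not normalized again. Of the 45037 probe sets without 64 controls, 34945 have 1 gene symbol in the platform annotation, 932 several and 9160 none, and no member shares a probe set with another symbol.

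Values below 0 were set to 0, 16 was added and the log2 was formed. A model was fitted to the 20680 probe sets with 50 or more on at least 2 arrays with limma 3.58.1 in R 4.3.3 (2 residual and 2.68 prior degrees of freedom), two-sided, with Benjamini-Hochberg adjustment over all of them. The call (2-fold, unadjusted p below 0.05) follows the study, whose error model was not run. The p-values measure the spread between pools of a genotype, moderated toward that of all tested probe sets. Outside the blocked fit this spread includes differences between the experiments. Where both pools of a group lay below 50, the bound given is the geometric mean of the other group over 50. Poly-A controls had medians of 238.1 and 214.3 in replicates 1 of Cyc and Wt and of 1.31 and 0.902 in replicates 2, and deviations of same-numbered arrays correlated at 0.447, so the numbers were taken as experiments.

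The members, gene lists and tests were chosen with earlier results of these data known. All members were named, by value or by range, with genes of the other leukocyte lists that were called or were among the 4 brightest of their list, not all of which are given, and a few genes of each list of other cells. Il7r, Ccr2, Cybb, Marco, Itgax, Siglecf, Foxj1 and Slc4a1 were chosen after their values were seen. Alternatives were pseudocounts of 1 and 50, no filter or one at 100, quantile normalization, median scaling, the replicate block, a trend in the prior, other detection thresholds, averaging the probe sets of each gene and leaving out each array, and, chosen after the data had been seen, the block with quantile normalization or with a pseudocount of 1. No genome was used, and positions are given for printed sequences only.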

Additional observations from a re-analysis of the deposited data

How the results depend on the processing

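The 6 member probe sets called higher in Cyc cells were 2 (Cd52 and Gzma) without a filter on dim probe sets, 3 with the filter at 100 and 0 at an adjusted p under 0.05 (limma). They ran from 2 (without the Cyc or the Wt pool of replicate 2) to 21 (without the Cyc pool of replicate 1) when a pool was left out, and those called lower from 0 to 1 (Jchain, without the Cyc pool of replicate 2). With the replicate number as a block the same 6 genes were called, and the pairing changed no call among the members. Median scaling called 9, with Lyz1 and Lyz2 added, and the block with a pseudocount of 1 called 7. The share of all tested probe sets called was counted for the fit as reported and the blocked fit only. The single probe set of other leukocyte genes called higher was 0 without a filter and with the filter at 100. At a detection threshold of 100, 9 and 20 genes were detected in the Cyc pools of replicates 1 and 2 and 8 and 7 in the Wt pools. The share of all genes was not counted at that threshold. The sum over the 42 genes in the Wt pool of replicate 1 was 2806 with median scaling and 2781 with quantile normalization, against 2569. Genes 2-fold higher in experiment 1, 3 as reported, were 9 with a pseudocount of 1, 1 with 50 and 5 with quantile normalization, and those 2-fold lower, 1 as reported, were 3 with a pseudocount of 1 and 0 with 50, quantile normalization or median scaling. In experiment 2, 28 genes were 2-fold higher when each was counted once at its brightest probe set, and 16 were with a pseudocount of 50. Of 22 tested genes 6 changed direction under at least 1 alternative, none of them called as reported. Adgre1 was at -0.0041 with quantile normalization, with or without the block, and ran from -0.38 to 0.45 with a pool left out. With a pool left out Ptprc ran from -0.24 to 1.48, Laptm5 from -0.31 to 0.53, Rac2 from -0.43 to 0.54, Jchain from -1.16 to 1.53 and Cd3g from -0.28 to 0.78. With a pool left out the lone pool of its genotype was assumed to vary like the others. The causes were not tested.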

Other observations

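Genes of platelets and red cells had no common order of pools. Ppbp, a chemokine precursor of platelets, was read at 97.4 and 28.7 on the Cyc arrays versus 129.0 and 119.1 on the Wt arrays. Alas2, the first enzyme of heme synthesis in red cell precursors, was read at 248.2 and 123.3 on the Cyc arrays versus 377.3 and 260.1 on the Wt arrays. For both genes the Cyc pool of replicate 2 was the lowest of the 4. The red cell anion exchanger Slc4a1 was highest there, at 40.8 and 59.5 on the Cyc arrays versus 36.9 and 28.5 on the Wt arrays, and the platelet integrin Itga2b was read at 111.0 and 102.2 on the Cyc arrays versus 130.6 and 87.7 on the Wt arrays. Of 6 mast cell genes, Hdc, which makes histamine, was read at 205.8 and 323.0 on the Cyc arrays versus 136.7 and 141.5 on the Wt arrays, and was not called different.

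Ltf, the iron-binding lactoferrin of neutrophil granules and of secretions of epithelia, was read at 16.8 and 1068.6 on the Cyc arrays versus 126.4 and 18.3 on the Wt arrays. Cbr2, a carbonyl reductase listed with macrophages and also abundant in airway cells, was read at 52.7 and 2215.9 on the Cyc arrays versus 510.1 and 19.1 on the Wt arrays. Both genes were highest in Cyc replicate 2 and next in Wt replicate 1, as were 4 airway genes (Scgb1a1, Scgb3a2, Cyp2f2 and Bpifa1) of the 10 matched, while others such as Sftpb and Sftpd had Cyc replicate 1 second. Neither was called different.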
